A study of Mus musculus with 18 samples.

Results

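The 38 genes described here drive cell division: they control entry into the cell cycle, license and copy the DNA, and carry the cell through mitosis. They were chosen by name, from the known functions of their products, and each symbol was found once among the 50600 genes of the 1 day experiment and once among the 17127 genes of the 12 hour experiment. By role they comprise 3 D-type cyclins, 5 E-type cyclins and E2F factors, 9 replication licensing genes, 5 genes of S-phase DNA synthesis and 16 genes of G2 and mitosis. After a filter on low counts 32 of them could be tested at 1 day, among 14266 genes, and 28 at 12 hours, among 12548 genes.

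Liver mRNA was sequenced from 18 mice operated to induce myocardial infarction (MI) or given a sham operation, 3 livers per group. At 1 day LC and HMRKO mice each gave a sham and an MI group, written LC + sham and so on, and 12 hours after the operation C57 mice gave a sham and an MI group. LC (littermate control, called wild type in the labels) mice carry MR flox/flox, and HMRKO (hepatocyte MR knockout, MR-/- in the labels) mice carry the same floxed alleles together with Alb-Cre, in which the albumin promoter drives the recombinase in hepatocytes. MR is the mineralocorticoid receptor, encoded by Nr3c2. All mice were C57BL/6 and 12 weeks old, the methods state males, MI was induced by tying off the left anterior descending artery for good, and sham mice had the surgery without the tie. For the 1 day MI livers the operation, and for all livers the time, come from the series design rather than from the labels. The time of day of collection was not given in the sources used here.

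Most hepatocytes of an adult liver are quiescent. D-type cyclins with their kinases start the exit from quiescence by inactivating pocket proteins, which frees E2F factors to switch on the genes of DNA replication. The MCM helicase is loaded at origins by CDC6 and CDT1 and held back by geminin, and a later wave of genes, driven in part by FOXM1 and the MuvB complex, equips the cell for mitosis. In whole liver, fewer cells of a type and less RNA per cell cannot be told apart, and hepatocytes, Kupffer cells, lymphocytes and erythroid cells can all contribute transcripts of these genes.

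Total counts ranged from 19098704 to 28945526 per liver at 1 day. At 12 hours the sham livers held 1361506 to 2255782 counts and the MI livers 16745645 to 19190405, so depth and operation cannot be told apart there, and 1 gene, Gm20594, took 1.79 to 3.66% of the counts in sham livers and 0.0167 to 0.0659% in MI livers. Hepatocyte transcripts were abundant in every liver, while Ly6g, which defines neutrophils, lay between 0 and 0.0508 CPM (counts scaled to the TMM-adjusted library total) at 1 day. The targeted gene Nr3c2 lay at 4.71 to 6.70 CPM in LC + sham and 2.54 to 3.76 CPM in HMRKO + sham, with no overlap, although this difference did not pass edgeR's quasi-likelihood test with Benjamini-Hochberg adjustment over all genes (log2 fold change -0.88 ± 0.25 SE, adjusted p = 0.471). Nr3c2 is counted over the whole gene, including any part outside the floxed segment.

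Promoters of these genes carry a recognisable grammar. Of the 38 genes, 29 had a promoter window in RefSeq (mouse GRCm38.p6), from 250 bases before the start to 50 after it. An E2F site (TTCCCGC, its variant TTCGCGC, the form TTGCCGC or the form TTGGCGC, on either strand) stood in 14 of the 29 windows (48.3%), against 9.69% of 27025 windows of all genes. The licensing genes held it most often, 6 of 7. The cell cycle homology region (CHR, TTTGAA) stood in 11 of 29 (37.9%, against 18.1% of all windows) and a CCAAT box in 22 of 29 (75.9%, against 37.9%), and of the 12 genes of G2 and mitosis with a window 9 held a CHR and 11 a CCAAT box. The letters of TTGGCGC can overlap the reverse of a CCAAT box, so both can be counted at the same place. The 250 bases before the start are printed, 5′ to 3′ on the strand of the gene, for 4 genes that differ in grammar and that the results below turn on, with E2F sites, CHRs and CCAAT boxes in capitals. Birc5 (chr11:117848987-117849236, plus strand) holds none of these letters, Rrm2 (chr12:24708004-24708253, plus strand) 1 E2F site and 1 CCAAT box, Mcm5 (chr8:75109259-75109508, plus strand) 3 E2F sites and 2 CCAAT boxes in this stretch, and Top2a (chr11:99024190-99024439, minus strand) 2 CHRs and 6 CCAAT boxes.
Birc5: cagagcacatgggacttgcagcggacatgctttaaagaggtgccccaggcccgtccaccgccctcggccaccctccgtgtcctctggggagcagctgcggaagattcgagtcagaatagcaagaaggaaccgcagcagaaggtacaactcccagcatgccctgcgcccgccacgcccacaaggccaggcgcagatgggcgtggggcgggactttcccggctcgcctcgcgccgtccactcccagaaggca
Rrm2: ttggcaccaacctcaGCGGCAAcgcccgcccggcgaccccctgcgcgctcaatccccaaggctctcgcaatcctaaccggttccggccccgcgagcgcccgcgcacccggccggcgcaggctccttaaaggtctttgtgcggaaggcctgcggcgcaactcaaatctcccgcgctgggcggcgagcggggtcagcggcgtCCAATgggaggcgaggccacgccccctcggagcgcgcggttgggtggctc
Mcm5: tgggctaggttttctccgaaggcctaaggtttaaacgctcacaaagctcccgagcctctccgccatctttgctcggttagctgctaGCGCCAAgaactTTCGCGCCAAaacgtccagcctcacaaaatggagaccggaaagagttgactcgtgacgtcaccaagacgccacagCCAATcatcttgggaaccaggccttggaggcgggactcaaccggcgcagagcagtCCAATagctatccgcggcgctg
Top2a: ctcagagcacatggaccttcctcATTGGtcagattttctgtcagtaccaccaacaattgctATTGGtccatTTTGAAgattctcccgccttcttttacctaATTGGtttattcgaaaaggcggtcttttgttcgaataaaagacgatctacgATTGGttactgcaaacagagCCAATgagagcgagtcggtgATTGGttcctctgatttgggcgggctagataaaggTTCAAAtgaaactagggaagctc

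These windows are descriptions of letters, not of bound sites. Mcm5, rich in E2F letters, fell at 12 hours but gave overlapping values in the 1 day groups, and Rrm2, with a single E2F site, rose in HMRKO mice at 1 day and in C57 mice at 12 hours, as given below.

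**Figure D1:**
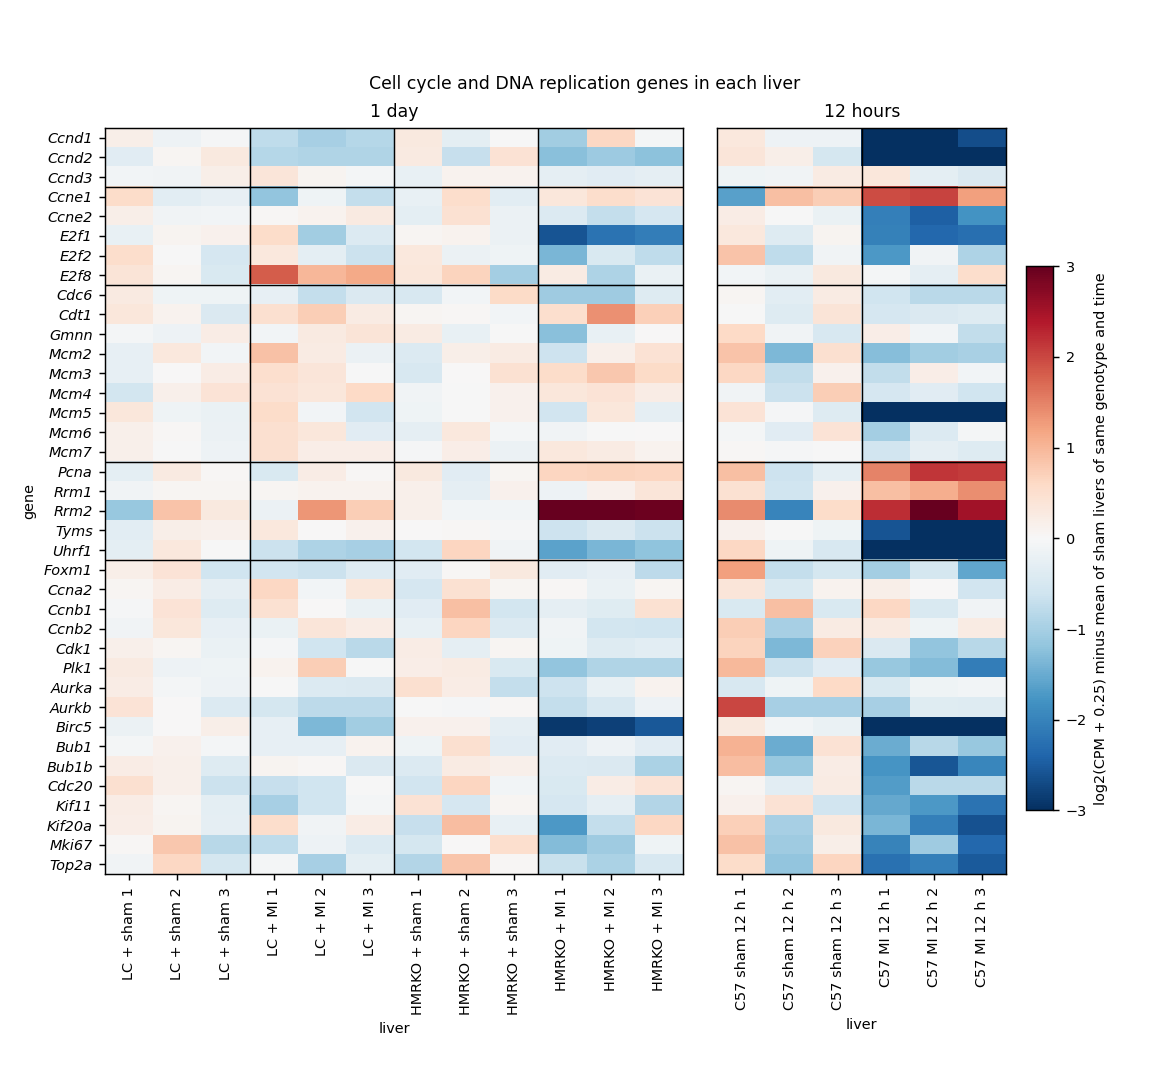
Each row is 1 of the 38 genes, grouped by role from D-type cyclins at the top to G2 and mitosis at the bottom, and each column 1 liver. Colour gives log2(CPM + 0.25) minus the mean of the 3 sham livers of the same genotype and time, with colours clipped at -3 and 3. At 12 hours each role holds blue rows, and in S-phase DNA synthesis red Pcna, Rrm1 and Rrm2 rows stand beside blue Tyms and Uhrf1 rows.

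In LC mice MI was followed by no change in any of these genes that passed the test at 1 day. Of 32 genes tested, 0 were higher and 0 lower by edgeR at an adjusted p under 0.05, where 2.68% of all genes were higher and 2.33% lower. At an unadjusted p under 0.05 there were 5 genes, and DESeq2 called 1 higher (E2f8) and 1 lower (Ccnd2). The median log2 fold change was 0.12 over the 32 genes and 0.01 over all genes. A p that misses the threshold does not show that levels were equal, and several genes had groups that did not overlap.

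Cyclin D1 (Ccnd1) and cyclin D2 (Ccnd2), the partners of CDK4 and CDK6 that carry growth signals to the cell cycle, were lower in all 3 LC + MI livers than in any LC + sham liver. Ccnd1 lay at 7.46, 5.89 and 6.42 CPM in LC + sham and at 3.76, 3.18 and 3.53 CPM in LC + MI. Ccnd2 lay at 2.58, 3.52 and 4.15 CPM in sham and at 1.75, 1.69 and 1.70 CPM in MI. Both levels stood at about the same fraction of sham, with log2 fold changes of -0.92 ± 0.33 (SE, edgeR adjusted p = 0.121) for Ccnd1 and -0.99 ± 0.29 (edgeR adjusted p = 0.0712) for Ccnd2. Cyclin D3 (Ccnd3) overlapped between the groups, at 39.7 to 48.6 CPM in sham and 41.3 to 55.3 CPM in MI.

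E2f8, an atypical E2F that represses E2F targets and is tied to polyploidy in hepatocytes, stood on the other side. Its levels were 4.74, 3.70 and 2.50 CPM in LC + sham and 13.2, 7.28 and 8.13 CPM in LC + MI, without overlap (log2 fold change 1.38 ± 0.42, edgeR adjusted p = 0.0783). Uhrf1, which brings maintenance DNA methylation to replicated DNA, was counted 38 times over the 3 sham libraries and 10 times over the 3 MI libraries (log2 fold change -1.73 ± 0.57, edgeR adjusted p = 0.1). Birc5 (survivin, a subunit of the chromosomal passenger complex) stood at 2.23 to 2.88 CPM in sham and 0.844 to 2.104 CPM in MI, with -0.94 ± 0.31 (edgeR adjusted p = 0.103). The 8 licensing genes tested had log2 differences of at most 0.53, 7 of them above 0, and none had an unadjusted p under 0.05.

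In HMRKO mice 9 of these genes passed the test after the same operation. Between HMRKO + MI and HMRKO + sham 3 of 32 genes rose (Rrm2, Cdt1 and Pcna), where 22.0% of all genes rose, and 6 fell (Birc5, E2f1, Uhrf1, Plk1, Ccnd2 and Tyms), where 21.7% of all genes fell. The shares of the set, 9.38% and 18.8%, lay below those of all genes tested. The median log2 fold change was -0.41 over the set and 0.01 over all genes. These counts lend no support by themselves, because 7 of the 32 genes (Ccne2, E2f1, E2f2, Foxm1, Plk1, Birc5 and Mki67) reached the minimum of the filter in all HMRKO + sham livers and not in all HMRKO + MI livers, and 0 genes the other way round. A further 5 genes, Uhrf1 among them, reached it in all livers of neither HMRKO group.

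Birc5 (ENSMUSG00000017716) made the largest fall of the set in HMRKO + MI. It lay at 3.60, 3.56 and 2.68 CPM in HMRKO + sham and at 0.224, 0.256 and 0.355 CPM in HMRKO + MI. The 3 MI livers sat far below every other liver of the experiment, 11.6-fold under sham (log2 fold change -3.54 ± 0.38, edgeR adjusted p = 4.01e-05). Behind the MI values stand only 18 counts in 3 libraries, against 221 in sham.

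Afmid is the nearest protein-coding gene before Birc5 on the same strand in GENCODE, without overlap, and its start overlaps that of Tk1, thymidine kinase, on the other strand. Afmid encodes an enzyme of tryptophan breakdown and was named here after its values were seen. Afmid lay at 113, 82.9 and 129.8 CPM in LC + sham and 67.4, 21.8 and 32.1 CPM in LC + MI. In HMRKO mice Afmid lay at 134, 93.8 and 155 CPM after sham and at 8.22, 10.5 and 10.4 CPM after MI. Tk1 ran from 26.9 to 39.8 CPM in LC + sham and from 5.23 to 26.3 CPM in LC + MI, and in HMRKO mice from 34.8 to 51.8 CPM after sham and from 1.02 to 1.27 CPM after MI. The 3 neighbours thus had the same order of group means, lowest in HMRKO + MI, then LC + MI, then LC + sham. Between HMRKO + MI and HMRKO + sham Afmid fell by 3.71 ± 0.37 (edgeR adjusted p = 2.87e-05) and Tk1 fell by 5.24 ± 0.55 (edgeR adjusted p = 3.51e-05) on the log2 scale. Whether counts of Birc5 include reads that run on from Afmid was not tested.

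**Figure D2:**
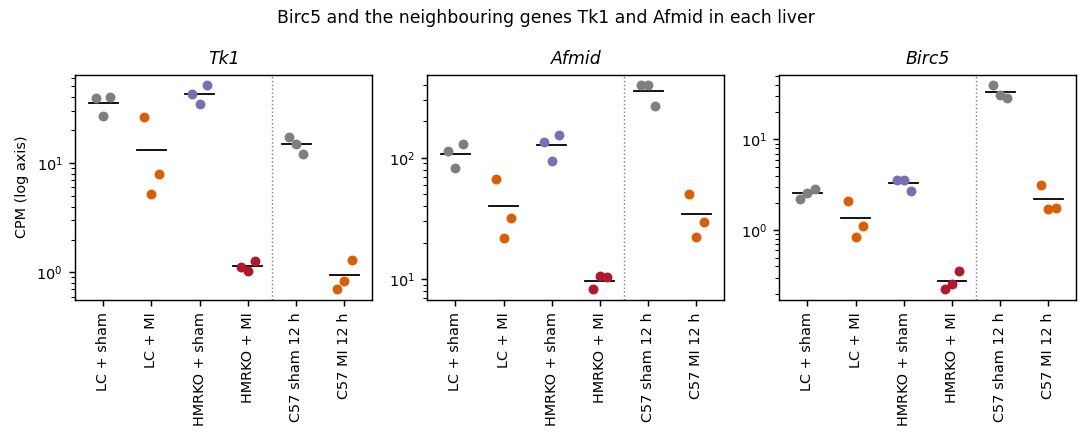
The vertical log axes give CPM of Tk1, Afmid and Birc5, points are single livers and short lines group means, with the 1 day groups left and the 12 hour groups right of the dotted line. In all 3 panels the HMRKO + MI livers are the lowest at 1 day and the MI livers lie below the sham livers at 12 hours.

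E2f1 (ENSMUSG00000027490), an activator of S-phase genes, fell too. It lay at 3.10, 3.23 and 2.59 CPM in HMRKO + sham and at 0.280, 0.438 and 0.507 CPM in HMRKO + MI. The groups stood well apart, with a log2 fold change of -2.83 ± 0.43 (edgeR adjusted p = 0.00033). E2f2 did not pass (-1.23 ± 0.54, edgeR adjusted p = 0.081), and of the E-type cyclins, which bring CDK2 into action, Ccne1 had 0.44 ± 0.38 and Ccne2 -0.79 ± 0.35 with edgeR adjusted p of 0.369 and 0.0853.

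Ccnd2 fell as well, from 3.18, 1.54 and 3.60 CPM in HMRKO + sham to 0.951, 1.10 and 0.964 CPM in HMRKO + MI (log2 fold change -1.46 ± 0.31, edgeR adjusted p = 0.00266). Ccnd1, its close relative, had no common direction in HMRKO + MI. Its 3 livers lay at 2.96, 9.93 and 6.14 CPM, on both sides of the sham range of 5.20 to 7.83 CPM. Uhrf1 was at 0.377, 1.20 and 0.614 CPM in HMRKO + sham and at 0.0559, 0.110 and 0.152 CPM in HMRKO + MI, and fell by 2.70 ± 0.59 on the log2 scale (edgeR adjusted p = 0.00295), with 48 counts in sham and 7 in MI. In no 1 day group did all livers reach the minimum of the filter for Uhrf1, and no HMRKO + MI liver reached it. Uhrf1 was thus tested through livers where it was higher, so its fall lends no support by itself. Plk1, the kinase that drives mitotic entry and exit, was at 0.838, 0.867 and 0.439 CPM in sham and 0.168, 0.256 and 0.254 CPM in MI (-1.62 ± 0.47, edgeR adjusted p = 0.0148). This call was lost without HMRKO + sham liver 1 or 2 or HMRKO + MI liver 1.

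Against this direction, Rrm2 (ENSMUSG00000020649), the regulated subunit of ribonucleotide reductase, which makes deoxynucleotides, rose more than any other gene of the set. It was at 0.670, 0.530 and 0.527 CPM in HMRKO + sham and at 17.4, 6.94 and 6.04 CPM in HMRKO + MI. All 3 MI livers exceeded every other liver at 1 day, 17.3-fold over HMRKO + sham (log2 fold change 4.11 ± 0.63, edgeR adjusted p = 0.000343). HMRKO + MI liver 1 was the highest, and without it the log2 fold change was 3.48. Its partner subunit Rrm1 stayed between 3.61 and 5.73 CPM in all HMRKO livers (0.12 ± 0.19, edgeR adjusted p = 0.625).

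Pcna, the sliding clamp of DNA polymerases, which also serves DNA repair, was at 15.2, 9.73 and 13.1 CPM in HMRKO + sham and at 19.7, 20.1 and 19.7 CPM in HMRKO + MI (log2 fold change 0.64 ± 0.21, edgeR adjusted p = 0.0225). Cdt1, which loads the MCM helicase, was at 1.38, 1.35 and 1.23 CPM in sham and at 1.96, 3.80 and 2.33 CPM in MI (1.04 ± 0.31, edgeR adjusted p = 0.0167). Both were higher in every MI liver, but neither call was stable. The call of Cdt1 was lost without HMRKO + sham liver 3 or HMRKO + MI liver 2, and that of Pcna without HMRKO + sham liver 2 or 3 or HMRKO + MI liver 2. The Pcna call was also lost under total-count scaling and with an absolute log2 fold change over 1. Tyms, thymidylate synthase, fell a little, from 5.74, 5.83 and 5.62 CPM to 3.63, 4.16 and 3.60 CPM (-0.59 ± 0.18, edgeR adjusted p = 0.0172). Its call was lost without HMRKO + MI liver 3 and with an absolute log2 fold change over 1. The 6 MCM helicase genes did not pass, with log2 fold changes between -0.12 (Mcm5) and 0.66 (Mcm3).

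The direct comparison of the infarcted groups asked how the HMRKO genotype bears on the liver after MI. Between HMRKO + MI and LC + MI 2 of 32 genes were higher (Rrm2 and Pcna), against 14.6% of all genes, and 3 were lower (E2f1, Birc5 and Tyms), against 16.2% of all genes. The median log2 fold change was -0.17 over the set and -0.01 over all genes. This comparison and the one before share the HMRKO + MI livers.

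E2f1 was at 3.91, 1.13 and 1.90 CPM in LC + MI, so that the 3 LC livers spread widely and still stood above all HMRKO + MI livers (log2 fold change -2.45 ± 0.43, edgeR adjusted p = 0.00233). Birc5 was at 2.104, 0.844 and 1.11 CPM in LC + MI (-2.24 ± 0.39, edgeR adjusted p = 0.00232), while for Afmid beside it the difference was -2.05 ± 0.35 and for Tk1 -3.52 ± 0.54 (edgeR adjusted p = 0.0021 and 0.00119). Rrm2 was at 1.15, 3.70 and 2.39 CPM in LC + MI (2.05 ± 0.54, edgeR adjusted p = 0.0137), a call lost without LC + MI liver 1 or HMRKO + MI liver 1 (1.42 without the latter). Pcna was at 8.92, 14.4 and 12.7 CPM in LC + MI (0.72 ± 0.21, edgeR adjusted p = 0.0199). The Pcna call was lost without LC + MI liver 1 or HMRKO + MI liver 2, under total-count scaling and with an absolute log2 fold change over 1. Tyms, at 6.16, 4.95 and 5.47 CPM in LC + MI, differed by -0.53 ± 0.18 (edgeR adjusted p = 0.0379) and kept its call in 9 of 20 alternatives. It was lost without LC + MI liver 1 or 3, HMRKO + sham liver 1 or 3, or any single HMRKO + MI liver.

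Between the sham groups no gene of the set differed by edgeR, 0 higher and 0 lower of 32 against 0.0210% and 0.0140% of all genes. At an unadjusted p under 0.05 there were 2, Rrm2 (log2 fold change -1.45 ± 0.65, edgeR adjusted p = 0.818) and Plk1 (1.15 ± 0.44, edgeR adjusted p = 0.739), and DESeq2 called 0 in either direction. Rrm2 in LC + sham ranged from 0.467 to 2.63 CPM.

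The interaction of genotype and operation tests whether MI acted differently in HMRKO and LC mice. It was higher for 1 of 32 genes, Rrm2, and lower for 3, E2f1, Birc5 and Plk1, against 6.74% higher and 8.50% lower over all genes, with a median of -0.35 for the set and close to 0 for all genes. The difference between the effects of MI was 3.50 ± 0.84 for Rrm2 (edgeR adjusted p = 0.0193, lost without LC + sham liver 2, and 2.87 without HMRKO + MI liver 1), -2.64 ± 0.56 for E2f1 (0.0134 by edgeR), -2.60 ± 0.49 for Birc5 (0.00937 by edgeR) and -2.11 ± 0.66 for Plk1 (0.0479 by edgeR), on the log2 scale. The Plk1 call held in only 6 of 19 alternatives and was lost without any single HMRKO + MI liver, HMRKO + sham liver 1 or 2, LC + MI liver 1 or 2, or LC + sham liver 2 or 3. HMRKO + sham, where Plk1 was highest, was also the only group in which all livers reached the minimum of the filter for Plk1. E2f8 (-1.79 ± 0.60, edgeR adjusted p = 0.0592) and Tyms (-0.73 ± 0.25, edgeR adjusted p = 0.0628) did not pass. E2f8 was lower in the interaction under DESeq2, no filter, the replicate block and without HMRKO + sham liver 3. Between the infarcted groups DESeq2 called E2f8 lower and Ccnd1 higher in addition to the 5 genes above.

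**Figure D3:**
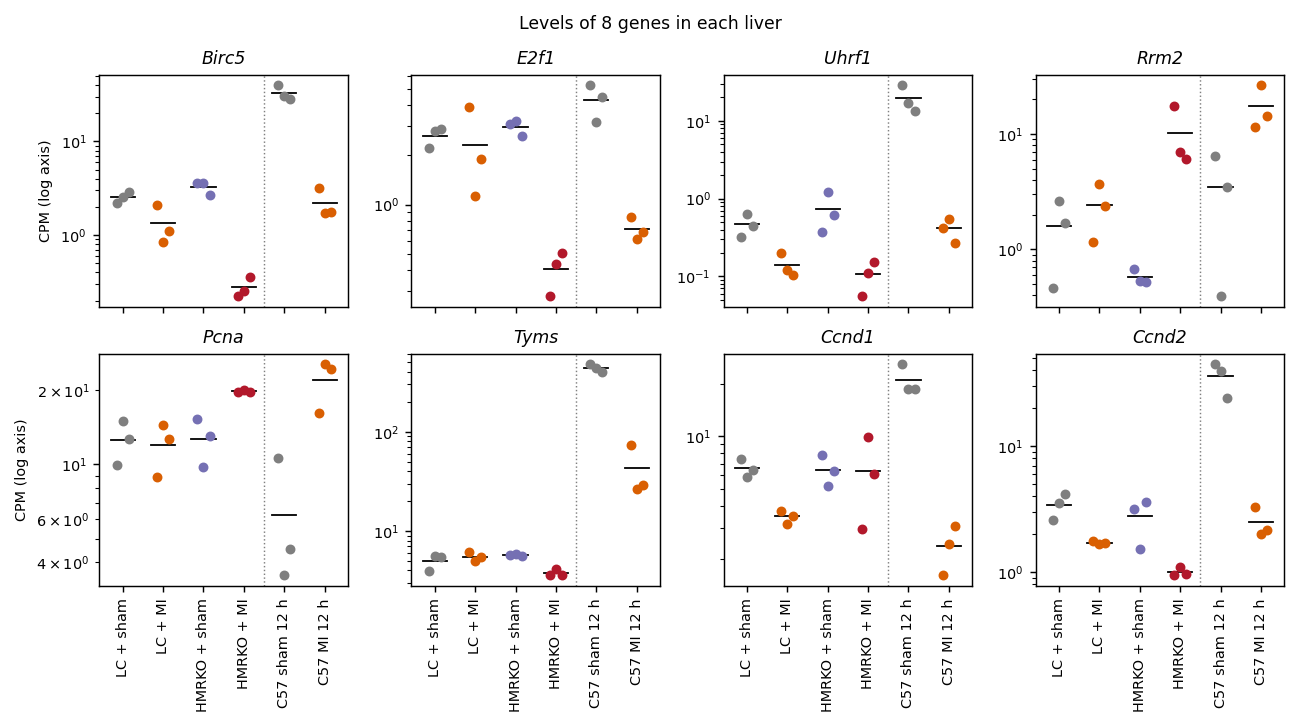
The vertical log axes give CPM of 8 genes, points are single livers and short lines group means, with the 1 day groups left and the 12 hour groups right of the dotted line. Birc5 and E2f1 are lowest in HMRKO + MI, Rrm2 and Pcna are highest there among the 1 day groups, and the 12 hour MI livers lie below sham for all but Rrm2 and Pcna.

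Markers of other liver cells also differed between groups at 1 day. Beside the counts below, 22.0% of all genes were higher and 21.7% lower in HMRKO + MI than in HMRKO + sham. In LC mice 2.68% of all genes were higher and 2.33% lower after MI. The counts describe the lists only. Of the 12 lymphocyte markers 6 were tested and 3 were lower in HMRKO + MI than in HMRKO + sham. Their summed level was 3.76 to 6.32 CPM in HMRKO + sham and 1.13 to 1.90 CPM in HMRKO + MI, while in LC mice it was 4.15 to 10.2 CPM after sham and 2.21 to 3.01 CPM after MI. Among the defining ones Cd79a of B cells ran from 0.628 to 1.49 CPM in HMRKO + sham and from 0 to 0.168 CPM in HMRKO + MI, whereas Cd3e of T cells overlapped at 0.132 to 0.434 and 0.110 to 0.503 CPM. Of the 13 neutrophil markers 8 were tested and 6 were higher, with a sum of 773.2 to 1178 CPM in HMRKO + sham and 4976 to 8999 CPM in HMRKO + MI although Ly6g was near 0. In LC mice 1 neutrophil marker was higher after MI and 0 lower. Their sums there were 448.4 to 2094 CPM after sham and 4462 to 5174 CPM after MI and did not overlap. The neutrophil list holds Lcn2, which hepatocytes also express. Of the 12 Kupffer cell and macrophage markers, all tested, 2 were higher and 3 lower in HMRKO mice, with overlapping sums of 159 to 231.9 CPM after sham and 112.1 to 207.8 CPM after MI. In LC mice 3 of them were lower after MI and 0 higher, with sums of 249.1 to 325.5 CPM after sham and 162.7 to 182.6 CPM after MI that did not overlap. Of the 12 erythroid markers 7 were tested, and in HMRKO mice 1 was higher and 2 lower after MI. Their sums in HMRKO mice were 208.4 to 362.2 CPM after sham and 191.4 to 242.9 CPM after MI. In LC mice 0 were higher and 0 lower, with sums of 245.9 to 311.7 CPM after sham and 168.7 to 203.5 CPM after MI that did not overlap. Of the 11 hepatocyte markers tested 3 were higher and 1 lower in HMRKO mice, with sums of 62390 to 75320 CPM in HMRKO + sham and 99170 to 104300 CPM in HMRKO + MI. In LC mice 1 hepatocyte marker was higher after MI and 2 were lower. Their sums there overlapped, at 81050 to 86310 CPM after sham and 79000 to 88710 CPM after MI. The part of these cells in the levels of the cell cycle genes was not tested.

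The genes of mitosis themselves were scarce in every liver at 1 day. Their summed level over 16 genes was 8.52 to 13.1 CPM in LC + sham and 7.20 to 9.57 CPM in LC + MI, and in HMRKO mice 11.7 to 16.4 CPM after sham and 5.54 to 8.27 CPM after MI. Mki67, the usual marker of cycling cells, ranged from 0.336 to 2.26 CPM over the 12 livers, and Top2a, the topoisomerase that untangles sister chromatids, from 0.121 to 1.25 CPM. Cdk1, the kinase of mitosis, stayed between 0.450 and 1.11 CPM. Bub1 of the spindle checkpoint reached at most 0.193 CPM and cyclin B1 (Ccnb1) at most 0.434 CPM, with no counts at all in some livers. Both genes, with Bub1b, Cdc20, Aurkb and Cdc6, were too low to be tested, so that a change in them was not detectable at this depth.

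At 12 hours 16 of these genes passed the test. Between MI and sham livers of C57 mice 13 of 28 genes tested fell (Ccnd1, Ccnd2, Ccne2, E2f1, Mcm2, Mcm5, Tyms, Uhrf1, Birc5, Kif11, Kif20a, Mki67 and Top2a), where 32.0% of all genes fell, and 3 rose (Pcna, Rrm1 and Rrm2), where 34.3% of all genes rose. The median log2 fold change was -0.996 over the set and 0.11 over all genes. These counts lend no support by themselves, because 10 of the 28 genes (Ccne2, E2f1, Mcm5, Uhrf1, Foxm1, Aurka, Kif11, Kif20a, Mki67 and Top2a) passed the filter on low counts only through the sham group and 2 (Ccne1 and Rrm2) only through the MI group. The sham libraries were the shallow ones, and scaling by total counts gave 19 lower and 2 higher genes of the set, as the closing section describes.

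Among the D-type cyclins Ccnd1 stood at 25.9, 18.6 and 18.8 CPM in sham and at 1.61, 2.42 and 3.06 CPM in MI (log2 fold change -3.13 ± 0.31, edgeR adjusted p = 1.38e-05). Ccnd2 stood at 44.8, 39.1 and 24.0 CPM in sham and at 3.30, 2.002 and 2.18 CPM in MI (-3.83 ± 0.31, edgeR adjusted p = 6.29e-06). For both genes the lowest sham liver lay well above the highest MI liver. Ccnd3 did not pass, with 48.3, 49.0 and 63.2 CPM in sham and 67.2, 43.4 and 39.0 CPM in MI (-0.11 ± 0.24, edgeR adjusted p = 0.704).

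Uhrf1 showed the steepest fall, 45-fold, from 28.9, 17 and 13.2 CPM in sham to 0.421, 0.552 and 0.272 CPM in MI (log2 fold change -5.49 ± 0.42, edgeR adjusted p = 5.09e-06). The shallow sham libraries held 49, 43 and 38 estimated counts and the deep MI libraries 6, 8 and 4. Uhrf1 is thus 1 of 4 genes, with Ccnd2, Mcm5 and Birc5, whose counts before any scaling were lower in every MI library than in every sham library although the MI libraries were deeper. Mcm5 had 32, 35 and 31 counts in sham and 15, 22 and 19 in MI (-3.45 ± 0.34, edgeR adjusted p = 1.36e-05), Ccnd2 76, 99 and 69 against 47, 29 and 32, and Birc5 68, 78 and 82 against 45, 25 and 26. These 4 genes were picked by this trait from the same data, so their shared direction is a description. Uhrf1 and Mcm5 passed the filter only through the sham group. The share of all genes with this trait was not computed.

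Birc5 stood at 40.1, 30.8 and 28.5 CPM in sham and 3.16, 1.73 and 1.77 CPM in MI (log2 fold change -3.88 ± 0.30, edgeR adjusted p = 5.09e-06). Its neighbours fell with it here too, Afmid from 266.8 to 402 CPM in sham to 22.2 to 50.6 CPM in MI (-3.38 ± 0.34, edgeR adjusted p = 1.52e-05) and Tk1 from 12.2 to 17.1 CPM to 0.702 to 1.29 CPM (-3.94 ± 0.35, edgeR adjusted p = 8.4e-06). E2f1 was at 5.303, 3.16 and 4.52 CPM in sham and 0.842, 0.621 and 0.681 CPM in MI (-2.55 ± 0.42, edgeR adjusted p = 0.000353), on only 8 to 13 counts in each sham library. Ccne2 fell by 2.26 ± 0.38 (edgeR adjusted p = 0.000431), while E2f8 did not pass at 0.08 ± 0.35 (edgeR adjusted p = 0.843).

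Of the licensing genes Mcm5 fell without overlap, as above, and Mcm2 fell by 1.42 ± 0.49 (edgeR adjusted p = 0.0257) with groups that overlapped, 8.25, 1.58 and 6.25 CPM in sham against 1.69, 2.002 and 2.11 CPM in MI. The Mcm2 call was lost without sham liver 1 or 3 or MI liver 1. The other 4 helicase genes tested, Mcm3, Mcm4, Mcm6 and Mcm7, had log2 fold changes between -0.68 and -0.23, and none of them passed. Mcm5 at -3.45 thus lay apart from its partners in the same complex, a difference between genes that was not tested. Mcm5 overlaps no other annotated gene in GENCODE.

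In S-phase DNA synthesis all 5 genes passed, 3 upwards and 2 downwards, beside the 34.3% of all genes that rose and 32.0% that fell. Rrm2 passed the filter only through the MI group and Uhrf1 only through the sham group, so the count is a description. Rrm2 was at 6.48, 0.395 and 3.47 CPM in sham and 11.5, 26.5 and 14.4 CPM in MI (log2 fold change 2.45 ± 0.57, edgeR adjusted p = 0.00319), with a single count in 1 sham library, and without sham liver 1 the log2 fold change was 3.14. Pcna was at 10.6, 3.56 and 4.52 CPM in sham and 16.1, 25.5 and 24.5 CPM in MI (1.91 ± 0.37, edgeR adjusted p = 0.00108). Rrm1 was at 3.54, 1.58 and 2.78 CPM in sham and 4.91, 5.66 and 7.01 CPM in MI (1.19 ± 0.38, edgeR adjusted p = 0.0181), and its call was lost under DESeq2, total-count scaling, limma on TPM and without sham liver 2. Rrm1 was not tested when any single MI liver was left out. The direction of these 3 genes was opposite to that of Tyms, which supplies thymidylate for the same purpose. Tyms was at 480.2, 436.6 and 403 CPM in sham and 72.8, 26.8 and 28.9 CPM in MI (-3.36 ± 0.39, edgeR adjusted p = 3.55e-05), and -3.99 without MI liver 1, the highest of the 3. In the 1 day experiment Tyms stayed between 3.60 and 6.16 CPM in all 12 livers. The experiments were counted and deposited separately and their levels cannot be set on 1 scale, so the reason for this gap was not tested.

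In G2 and mitosis 5 of 8 tested genes fell and 0 rose, beside the 32.0% of all genes that fell and 34.3% that rose. Of these 8, Foxm1, Aurka, Kif11, Kif20a, Mki67 and Top2a are among the genes that passed the filter only through the sham group, so the count is a description. Top2a was at 5.89, 1.58 and 6.25 CPM in sham and 0.632, 0.759 and 0.477 CPM in MI (log2 fold change -2.83 ± 0.54, edgeR adjusted p = 0.000908). Mki67 was at 5.303, 1.19 and 3.13 CPM in sham and 0.491, 1.17 and 0.340 CPM in MI (-2.16 ± 0.64, edgeR adjusted p = 0.012), lost without sham liver 1 or 3. It was not tested under the stricter filter, under limma on TPM or when any single MI liver was left out. Sham liver 2 was the lowest sham liver for both, nearly at the level of the MI livers for Mki67. The mitotic kinesins Kif11 (-2.08 ± 0.46) and Kif20a (-2.30 ± 0.56) fell with edgeR adjusted p of 0.00234 and 0.00415, on 5 to 15 counts in each sham library. Foxm1 (-1.31 ± 0.64), cyclin A2 (Ccna2, -0.11 ± 0.45) and Aurka (-0.39 ± 0.47) did not pass. The remaining 8, Ccnb1, Ccnb2, Cdk1, Plk1, Aurkb, Bub1, Bub1b and Cdc20, were too low to be tested here, with at most 7 counts in any sham library. With other filters some could be tested, and Bub1b was then lower under DESeq2, no filter, limma on TPM and without any single sham liver, Plk1 under limma on TPM and without sham liver 2, and Cdk1 without sham liver 2.

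**Figure D4:**
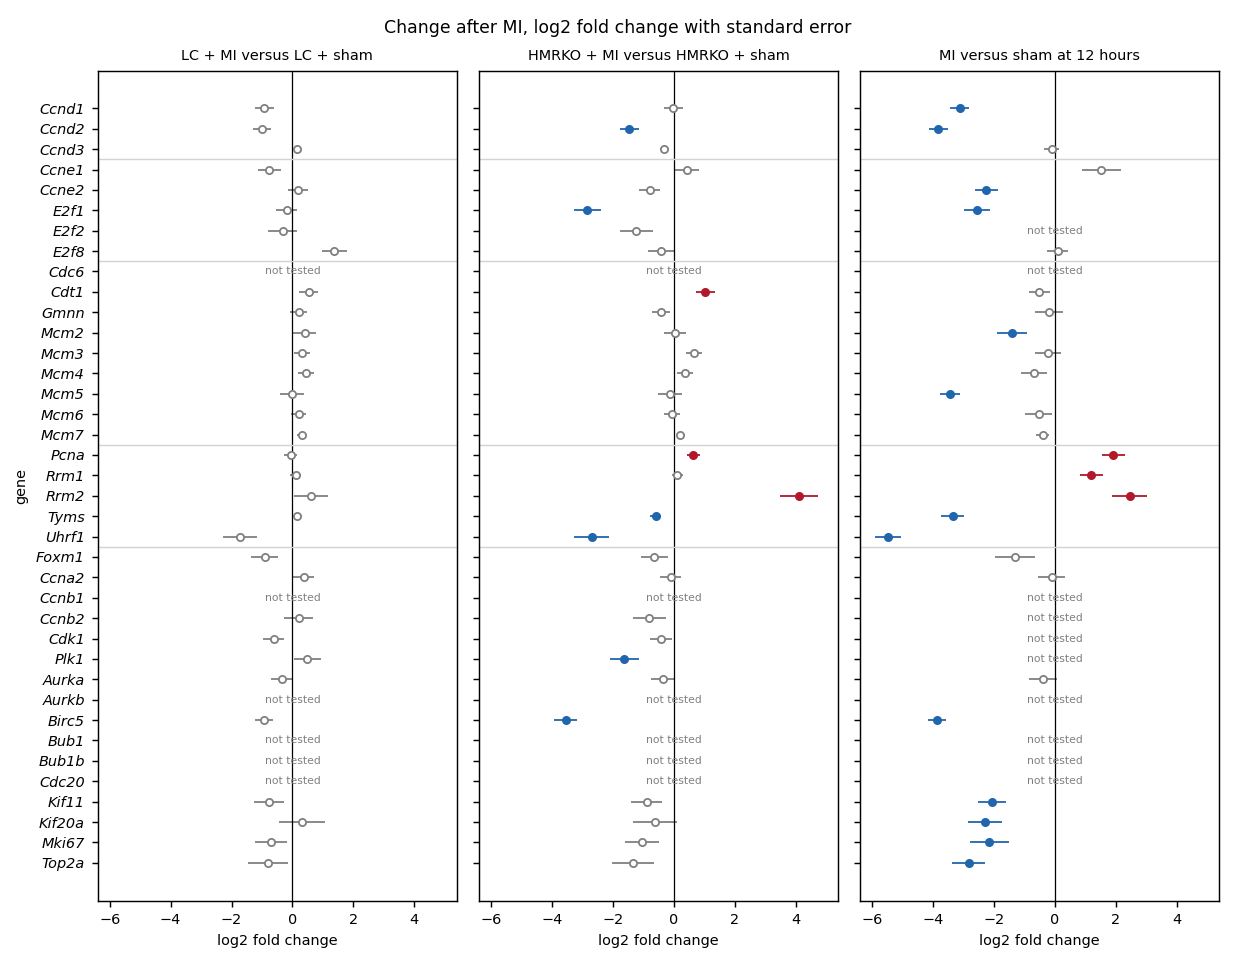
The horizontal axes give the log2 fold change of MI against sham for the 38 genes in LC mice at 1 day, HMRKO mice at 1 day and C57 mice at 12 hours, bars are standard errors, and filled points (red higher, blue lower) passed edgeR at an adjusted p under 0.05. No point is filled for LC mice, 9 are filled for HMRKO mice and 16 at 12 hours.

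Hepatocyte markers differed between the 12 hour groups too. Beside the counts below, 34.3% of all genes were higher and 32.0% lower in MI. The summed level of 12 markers was 37580 to 43870 CPM in sham and 101500 to 139600 CPM in MI, and of 11 tested 9 were higher. Only 2 lymphocyte markers could be tested and both were lower, with the summed level of all 12 at 6.33 to 11.1 CPM in sham and 2.18 to 3.66 CPM in MI. Of 7 stellate cell markers tested 4 were lower, and of 9 neutrophil markers 6 were higher and 2 lower, with Ly6g at 0 to 0.395 CPM in sham and 1.90 to 4.15 CPM in MI. The part of such differences in the cell cycle genes was not tested.

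Further genes of the cell cycle were taken from 5 lists with 149 genes. In LC mice after MI 4 of the 111 tested rose (3.60%, beside 2.68% of all genes) and 3 fell (2.70%, beside 2.33%). In HMRKO mice 13 rose (11.7%, beside 22.0% of all genes) and 20 fell (18%, beside 21.7%). Between the infarcted groups 7 were higher (6.31%, beside 14.6% of all genes) and 21 lower (18.9%, beside 16.2%). At 12 hours 26 of 105 rose (24.8%, beside 34.3% of all genes) and 34 fell (32.4%, beside 32.0%). The shares that fell were thus near those of all genes, and the genes named from these lists are examples by smallest p, not a result about the lists. The interaction was higher for 3 (2.70%, beside 6.74%) and lower for 6 of the 111 (5.41%, beside 8.50%), and between the sham groups 0 passed by edgeR in either direction, with 5 at an unadjusted p under 0.05.

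The CDK inhibitor p21 (Cdkn1a), which arrests the cycle, rose in all 3 comparisons of MI with sham. It was at 1.22, 0.703 and 0.710 CPM in LC + sham and at 15.3, 22.3 and 29.1 CPM in LC + MI. In HMRKO mice it was at 0.461, 0.915 and 0.571 CPM after sham and at 182, 49.1 and 61.4 CPM after MI. The log2 fold change was 4.65 ± 0.52 in LC mice (edgeR adjusted p = 0.00121), 7.23 ± 0.58 in HMRKO mice (edgeR adjusted p = 9.59e-06) and 4.27 ± 0.44 at 12 hours (edgeR adjusted p = 1.75e-05). The effects of MI differed between genotypes by 2.58 ± 0.77 (edgeR adjusted p = 0.041), with 1 HMRKO + MI liver far above the others. The related inhibitor p27 (Cdkn1b) passed only at 12 hours (0.97 ± 0.22, edgeR adjusted p = 0.00264).

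Wee1, the kinase that holds CDK1 inactive, fell in all 3 comparisons, with log2 fold changes of -1.63 ± 0.30 in LC mice, -2.67 ± 0.31 in HMRKO mice and -1.95 ± 0.47 at 12 hours (edgeR adjusted p = 0.0125, 7.04e-05 and 0.0038). Myc passed in none of them and varied widely among sham livers, from 1.81 to 22.3 CPM in LC + sham alone. Ccnf, a cyclin of a ubiquitin ligase that limits ribonucleotide reductase, rose by 1.31 ± 0.17, 2.19 ± 0.18 and 3.19 ± 0.44 in the same order (edgeR adjusted p = 0.00233, 1.02e-05 and 0.000112). In LC mice the pathway genes that passed included Ccng2 (log2 fold change 0.82), Fen1 (1.38) and Lmnb1 (-0.80), a cyclin of arrested cells, a flap nuclease and a lamin.

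In HMRKO mice the 43 further replication genes gave 4 higher and 11 lower (9.30% and 25.6%, beside 22.0% and 21.7% of all genes). Among the leading were Tk1 (-5.24), Dut (-1.29) and Mcm10 (-2.32), all lower, which encode enzymes of thymidine nucleotides and, for Mcm10, an initiation factor. Of 23 further mitotic genes 1 was higher and 6 lower (4.35% and 26.1%), with Pttg1 (securin, -0.98), Spc24 (-2.48) and Spc25 (-1.86) of the kinetochore lower and Cdc16 (0.70) of the anaphase-promoting complex higher. Chek2 (-2.14), a checkpoint kinase, was lower, and Plk4 (1.77), of centriole copying, higher. Cdkn2d (-0.71) was lower, and Lin54 (1.14) and E2f4 (0.46) of the repressive DREAM complex were higher.

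Between the infarcted groups, a comparison that shares the HMRKO + MI livers with the last, 1 of 43 replication genes was higher and 10 lower, and 2 of 23 mitotic genes were higher and 6 lower (lower in 23.3% and 26.1%, beside 16.2% of all genes). HMRKO + MI was lower in Tk1 (-3.52), Dut (-1.08), Pold1 (-1.33), Chek2 (-2.24), Pkmyt1 (-1.46), Cks2 (-0.91), Spc24 (-1.57), Cenpa (-1.06), Pttg1 (-0.51), Cdkn2d (-0.80) and Lin37 (-0.73), and higher in Cdkn1a (2.13), Ccnf (0.66) and Tacc3 (1.08). At 12 hours the lists of replication and mitosis had 12 of 39 and 13 of 23 genes lower (30.8% and 56.5%, beside 32.0% of all genes) and 3 higher in each. Among the leading there were Ube2c (-3.73), Spc24 (-5.21), Kif15 (-4.19), Smc4 (-2.68), Tk1 (-3.94), Mcm10 (-2.12) and the ligase Lig1 (-2.69).

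Regulators at 12 hours were more mixed. Chek2 (-5.67), Cdk6 (-1.78), Plk2 (-1.70), Lin37 (-1.82), Mybl1 (-2.12) and Cdkn1c (-1.44) were lower, whereas Ccnf (3.19), the pocket protein gene Rbl2 (1.40), the E2F partner Tfdp1 (1.42) and Lin52 (2.08) were higher. Among the 20 tested of the other cyclins, kinases and phosphatases 10 rose and 5 fell (50% and 25%). Among the 8 tested CDK inhibitors and pocket proteins 4 rose and 1 fell (50% and 12.5%). Of all genes 34.3% rose and 32.0% fell, so these counts are descriptions of short lists.

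Overlap with other genes bears on how the counts can be read. In GENCODE 16 of the 38 genes overlap at least 1 annotated gene and 9 a protein-coding one, among them Ccnd1, Ccnd3, Ccne2, Mcm7, Foxm1, Ccna2, Cdc20 and Kif20a. Cdt1 overlaps Gm20388 and Foxm1 overlaps Gm44596 and Tex52, all on the same strand, where no strand setting could part the reads. The other protein-coding partners lie on the opposite strand. Their reads cannot be told apart either, since the strand setting of the counting was not stated. Birc5, E2f1, Uhrf1, Tyms, Pcna, Rrm2 and Mcm5 overlap no annotated gene.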

How the data were processed

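Liver RNA from 18 mice was analysed as 2 experiments. The authors deposited raw counts per gene at 1 day, and for 12 hours an estimated count per gene with its FPKM and TPM. The FPKM values deposited by the authors were not used, and the TPM values deposited by the authors served 1 alternative. The submitters' processing notes list the build mm9 and the tools HISAT2 2.1.0, Bowtie2 2.2.3, DESeq2 and TopHat2, without a role. For the counter, the annotation and the strand of counting, nothing was given in the sources used here. Every value column was mapped to a liver (0 were not).

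Estimated counts were rounded. Genes were kept by filterByExpr with groups (minimum count 10, total 15), scaled by TMM and tested in R 4.3.3 with edgeR 4.0.16 (quasi-likelihood, 1 coefficient per group, Benjamini-Hochberg over all genes), over 12 livers at 1 day and 6 at 12 hours. Called genes had an adjusted p under 0.05. CPM used the TMM-scaled totals of all genes. A fold change is first group minus second on the log2 scale, ± SE. Biological coefficients of variation of 0.209 (1 day) and 0.240 (12 hours) were estimated, and 3 livers per group limit precision. No label says which livers share a cage or day. The code was tested on simulated data.

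Members and lists were chosen with earlier results of these data known. Named were all members, up to 4 passing genes with the smallest p per pathway list in 4 comparisons, Cdkn1a, Cdkn1b, Wee1, Myc, Nr3c2 and marker genes. Afmid and Gm20594 were added after their values were seen. 1 pathway gene that the rule names is not reported here. Coordinates, promoters and overlaps come from RefSeq and GENCODE on GRCm38, not from the files. Alternatives were RLE, DESeq2 1.42.0, no filter, a stricter filter (mean count of 10), a replicate block, each replicate left out, an absolute log2 fold change over 1, only the 6 livers compared, limma 3.58.1 on log2(TPM + 1), and total-count scaling.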

Additional observations from a re-analysis of the deposited data

Results flagged for a closer look

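In 4 genes of the set the effect of MI at 1 day differed between HMRKO and LC mice by the edgeR interaction test, in log2 units: E2f1 by -2.64, Birc5 by -2.60, Plk1 by -2.11 and Rrm2 by 3.50. LC + MI minus LC + sham was -0.19 for E2f1, -0.94 for Birc5, 0.49 for Plk1 and 0.61 for Rrm2, and HMRKO + MI minus HMRKO + sham was -2.83, -3.54, -1.62 and 4.11. The 2 genes next to Birc5 differed in the same direction, Afmid by -2.28 and Tk1 by -3.81. Plk1 rests on 15 to 48 counts per group of 3 livers. It reached the minimum of the filter in all livers of HMRKO + sham alone, the group where it was highest, so its difference lends no support by itself.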

How the results depend on the processing

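The 34 calls of genes of the set were tried under up to 20 alternatives each. In these trials the call was kept 516 times, lost 52 times and reversed 0 times. Alternatives in which the gene was not tested count as neither kept nor lost. At 12 hours Mki67 was thus tried in 9 alternatives and Rrm1 in 11, where Birc5 was tried in 14. The counts of called genes stayed within 1.5 times in 207 cases and moved in 19. For LC + MI versus LC + sham, with 0 higher and 0 lower, DESeq2 gave 1 higher and 1 lower, no filter 1 higher and 2 lower, total-count scaling 1 lower (chosen after seeing the data), and the 6 livers compared alone 1 lower. Leaving out single livers gave 0 to 1 higher (1 without HMRKO + sham liver 3) and 0 to 1 lower (1 without LC + MI liver 1, HMRKO + sham liver 2 or HMRKO + MI liver 1). For HMRKO + MI versus LC + MI, 1 was higher with an absolute log2 fold change over 1, and 1 higher and 5 lower under total-count scaling, and single livers left out gave 0 to 2 higher (0 without LC + MI liver 1, 1 without HMRKO + MI liver 2) and 2 to 5 lower (5 without HMRKO + sham liver 2). With single livers left out the ranges were 1 to 3 higher (1 without HMRKO + MI liver 2) and 5 to 6 lower for HMRKO + MI versus HMRKO + sham, 0 to 2 higher (0 without LC + sham liver 2, 2 without HMRKO + MI liver 1) and 2 to 4 lower for the interaction, 0 and 0 between sham groups, and 2 to 3 higher and 11 to 16 lower at 12 hours. HMRKO + MI versus HMRKO + sham gave 3 higher and 4 lower with only the 6 livers compared, where Uhrf1 and Plk1 were not tested. Under total-count scaling it gave 2 higher and 7 lower. Over all genes LC + MI versus LC + sham had 382 higher and 332 lower as reported, 632 and 638 by DESeq2 and 121 and 55 without LC + MI liver 2, and HMRKO + sham versus LC + sham had 3 and 2 as reported, 34 and 17 by DESeq2 and 53 and 31 with no filter. The cause was not tested.

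Total-count scaling moved the median of all genes at 12 hours to -0.54 and the share of calls that were higher from 51.7% to 27.4%, with 2 higher and 19 lower in the set, and limma on TPM gave 29.2%, with 2 and 18. At 1 day that share went from 53.5% to 30.3% for LC + MI versus LC + sham, 47.5% to 33.0% for HMRKO + MI versus LC + MI, 50.3% to 34.9% for HMRKO + MI versus HMRKO + sham and 44.2% to 28.1% for the interaction.

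Replicate numbers recur across groups, and no label states that livers are paired. Over 18 pairs with 1 number at 1 day correlations of deviations ran from -0.171 to 0.182, 3 of them over 0.1. Over 3 pairs at 12 hours they ran from -0.089 to 0.024. With 3 livers per group such correlations cannot exclude a pairing. With the replicate number as a block the set gave the same counts, 0 and 0 in LC mice, 2 higher and 3 lower for HMRKO + MI versus LC + MI, 3 and 6 for HMRKO + MI versus HMRKO + sham, 1 and 3 for the interaction and 3 and 13 at 12 hours, with E2f8 in place of Tyms between the infarcted groups and in place of Plk1 in the interaction. Depth limits the genes under about 1 CPM, most of them mitotic, and at 12 hours it cannot be told apart from the operation.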
